A study of Mus musculus with 4 samples.

Results

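The genes described here are 10 transcription factor and immediate-early genes: Fos, Fosb, Fosl2, Jun, Junb, Jund, Egr1, Atf3, Maff and Ier2. They were taken by symbol from a table of 15586 genes, which held all 10 of them. RNA was sequenced from retinal microglia, the tissue's own macrophages, of 2-month-old mice, with 200 sorted cells in each library. The 2 control libraries came from Cx3cr1CreER/+;Tak1fl/fl mice given corn oil into the peritoneum for 5 days, and the 2 TAK1 knockout libraries from mice given tamoxifen at 75 mg/kg for 5 days. The genotype label of the knockouts reads Cx3cr1CreER/+;Tak3fl/fl where the treatment protocol reads Tak1, so the groups are named here as in the sample titles.

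All mice carried CreER, a Cre recombinase that tamoxifen activates, under control of Cx3cr1, together with the floxed alleles. Only the knockouts received tamoxifen, so the drug and the deletion cannot be told apart. Cx3cr1 is also active in monocytes and other macrophages, and cells were sorted on the EYFP label alone. Whether each library had its own animal is not in the labels, so the spread behind each p-value is that of these samples and could be technical only. The comparison of knockout with control asked how loss of TAK1, a kinase upstream of the MAP kinases JNK and p38 and of NF-kB, changed transcripts in these cells.

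Activator protein 1 (AP-1) is a dimer, typically of a Jun protein with a Fos, ATF or Maf relative, joined through leucine zippers, that binds DNA through the adjoining basic regions. JNK phosphorylates Jun, and JNK, p38 and ERK act through factors at the promoters of the FOS and EGR genes, so AP-1 genes are both targets and effectors of the pathway that TAK1 feeds. Several of these genes are immediate-early genes, transcribed within minutes of a stimulus without new protein synthesis. In microglia they are also known to be induced by tissue dissociation and sorting, and the labels used here give no time between dissection and freezing.

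Values are FPKM, fragments scaled to transcript length and library size, so levels can be compared between genes within a library. Between libraries FPKM also depend on the rest of the library, and results that turned with the scaling are given as such. Fold changes are knockout minus control on the log2(FPKM + 1) scale, which understates the change of low genes. Limma's moderated test was run on the 7823 genes whose mean over all libraries reached 1 FPKM, and p-values were adjusted over all of these. Of the 10 genes, 9 passed this filter and Maff did not.

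The targeted gene Map3k7, which encodes TAK1, was at the floor in all libraries (0.03 and 0 FPKM in controls, 0.02 and 0.08 FPKM in knockouts) and could not check the group labels. Libraries differed in ways that touch these genes. Genes at 1 FPKM or more numbered 3777 to 4481 in the controls and 5628 to 6055 in the knockouts. Over all tested genes the median log2 fold change was 0.94. It depended on level: the median was 1.35 where the mean lay from 1 to 20 FPKM, 0.78 where it lay from 20 to 100 and -0.11 where it reached 100. In 32.1% of tested genes over 90% of the FPKM lay in 1 library, so silence cannot be read from a value near 0. Of 19 microglia markers, 18 were at 1 FPKM or more in all libraries, the exception being Sall1, at 0.07 FPKM in control 1.

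Fos and Atf3 stood lower in both knockouts than in both controls, and Ier2 stood higher. The other 6 tested members had overlapping groups. None of the 9 tested members was called at an adjusted p under 0.05, and neither was any of the 7823 tested genes (0%, smallest limma adjusted p = 0.547). At an unadjusted p under 0.05 there were 602 tested genes (7.7%), 475 of them higher (6.07%) and 127 lower (1.62%), and Atf3 was the only member. Fold changes were below 0 in 3 of the 9 members and in 36.7% of all tested genes. Groups did not overlap in 27.8% of all tested genes above the controls and in 11.4% below them, together 39.2%. The 3 of 9 members without overlap are near that background share. For groups of 2 and 2 the smallest p of an exact permutation test, two-sided, is 0.33.

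**Figure D1:**
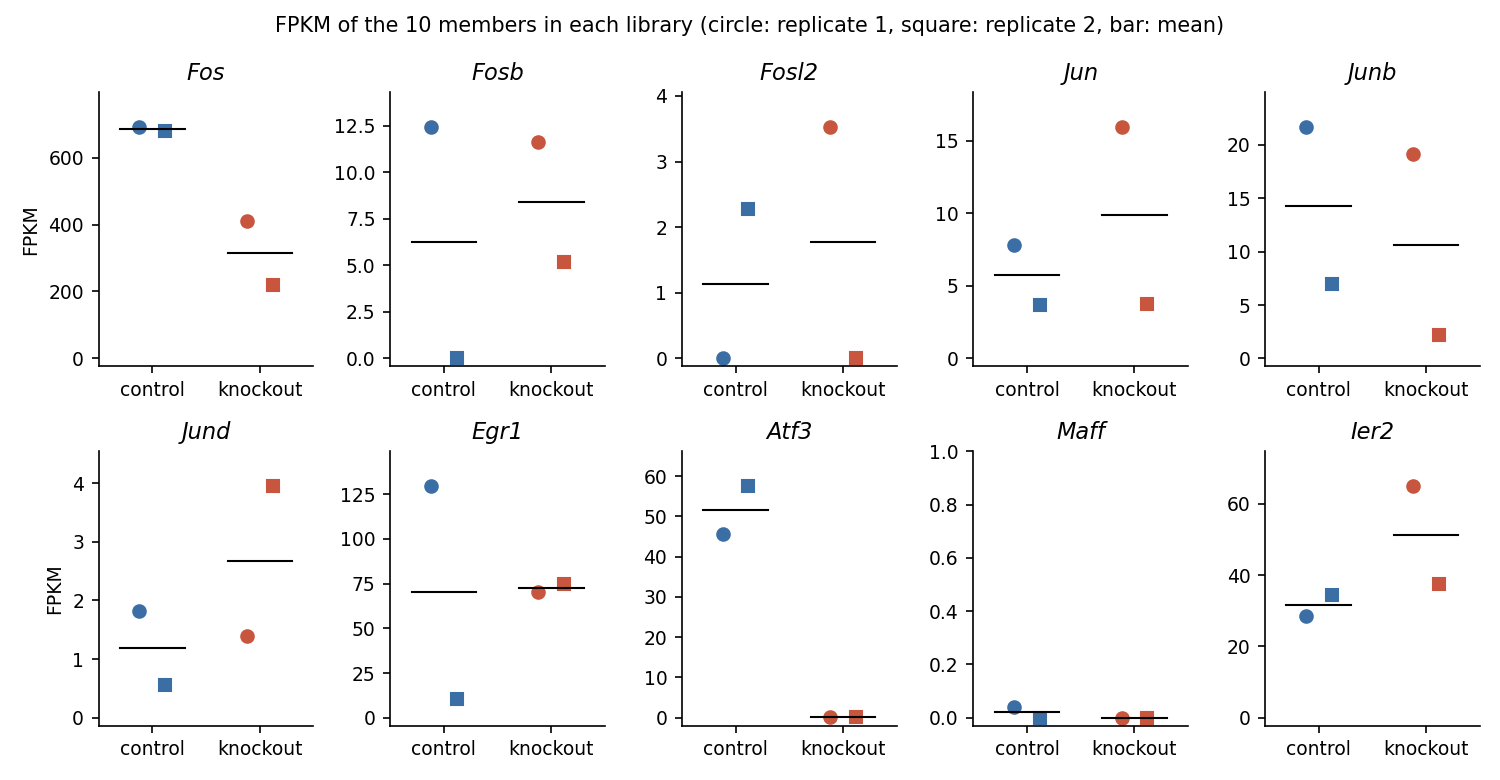
FPKM of each of the 10 genes (vertical axes, linear, each from 0) in the 2 control and 2 TAK1 knockout libraries, with circles for replicate 1, squares for replicate 2 and bars for group means. Fos and Atf3 are lower in both knockouts than in both controls, Ier2 is higher, and Maff is at the floor in every library.

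Fos encodes c-Fos, the AP-1 subunit that pairs with Jun proteins and is the textbook immediate-early gene. It read 692 and 679 FPKM in the control libraries and 411 and 220 FPKM in the knockout libraries. The controls were close to each other and both knockouts were lower, with knockout 2 the lowest. The lower control was 1.65 times the higher knockout. Group means were 686 ± 9.56 FPKM (SD, n = 2) in controls and 316 ± 135 FPKM (SD, n = 2) in knockouts. The log2 fold change was -1.19 (SE 0.57, 95% interval -2.58 to 0.21), and it did not pass the test (limma adjusted p = 0.698). Among the 1177 tested genes with a mean of 100 FPKM or more, where Fos lies, 26.5% had both knockouts below the controls and 19.0% had both above.

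Fos was the most abundant of the 10 genes in every library, with ranks of 239 and 242 among 15586 genes in the control libraries and 325 and 656 in the knockout libraries. Ranks within a library do not depend on the scaling between libraries, and the groups did not overlap by rank either. They do depend on the other genes of the library, and more genes were at 1 FPKM or more in the knockouts. Fos made up 63.3% to 85.4% of the summed FPKM of the 10 genes. That sum was 940 and 795 FPKM in the control libraries and 598 and 348 FPKM in the knockout libraries. Without Fos, the other 9 genes summed to 247 and 116 FPKM in the controls and 187 and 128 FPKM in the knockouts, and the groups overlapped. The gap between the groups in the sum was thus that of Fos.

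Atf3 encodes a stress-induced AP-1 partner that represses many inflammatory genes in macrophages. It read 45.5 and 57.6 FPKM in the control libraries and 0.07 and 0.22 FPKM in the knockout libraries. Both knockouts were near 0, and the lower control was 207 times the higher knockout, a ratio that rests on values near the floor. The log2 fold change was -5.51 (SE 1.55, 95% interval -9.30 to -1.72), with an unadjusted p of 0.012 and a limma adjusted p of 0.559. Its interval was the only one of the 9 that did not hold 0. Only 25 of the 7823 tested genes had a lower fold change. Atf3 passed the filter of 1 FPKM through its controls alone, so its interval, p and place among the fold changes add no support beyond the values. The rank of Atf3 was 1887 and 1647 in the control libraries and 7495 and 6631 in the knockout libraries.

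The form of the Atf3 values, high in one group and near 0 in the other, was found in both directions. Of tested genes, 32 (0.409%) read at least 20 FPKM in both controls and under 1 FPKM in both knockouts, and 222 (2.84%) did the reverse. These limits were set after the Atf3 values were seen.

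The promoters of these 2 genes are shown because Fos and Atf3 were the members that stood lower in both knockouts. Each sequence is the 250 bases before the RefSeq start (GRCm38.p6), and capitals mark TGACGT or its reverse complement ACGTCA, which is part of the cyclic AMP response element bound by ATF and CREB proteins, and TATAAA, the core of the TATA box. The Fos promoter lies at chr12:85473640-85473889 on the plus strand and the Atf3 promoter at chr1:191183334-191183583 on the minus strand. GENCODE M21 has 2 transcripts of Atf3, and the gene reaches chr1:191218039, so a start farther upstream was not searched.
Fos: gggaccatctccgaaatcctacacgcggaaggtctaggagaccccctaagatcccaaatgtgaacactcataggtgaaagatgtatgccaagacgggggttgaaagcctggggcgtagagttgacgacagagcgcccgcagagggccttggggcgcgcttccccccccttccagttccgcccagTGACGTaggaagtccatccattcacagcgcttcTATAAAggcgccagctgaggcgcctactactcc
Atf3: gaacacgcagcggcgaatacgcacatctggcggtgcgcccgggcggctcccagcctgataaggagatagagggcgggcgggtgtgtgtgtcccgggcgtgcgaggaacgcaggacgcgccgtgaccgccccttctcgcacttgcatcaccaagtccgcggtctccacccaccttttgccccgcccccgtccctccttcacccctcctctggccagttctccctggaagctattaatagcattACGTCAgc

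Promoters were given for 8 of the 10 genes, all except Egr1 and Ier2. The sequence TGACGT, searched on both strands, was in the promoters of Fos, Atf3 and Maff, and in 7.29% of the 27025 genes with a promoter in the table. It lay from 66 to 61 bases before the start of Fos and from 8 to 3 bases before that of Atf3. The full element TGACGTCA, which contains TGACGT on each strand, was in 1 of the 3 Maff promoters, against 1.77% of all genes. The AP-1 site TGAGTCA (both strands) was in none of the 8 and in 5.16% of genes, and the CArG box of serum response factor was in none of the 8 and in 1.62%. Only exact matches within the 250 bases were counted, so sites of another form or farther away were not searched. The Jund sequence ended at chr8:70697738, whereas the GENCODE M21 gene starts at 70698949. A lack of sites in these genes therefore cannot be read from the search. TATAAA, searched on the coding strand, was in the promoter of Fos and of 8.94% of genes. The searches for TGACGT and TATAAA were added after the sequences had been seen. Maff, which shares TGACGT with Fos and Atf3, was at the floor in all libraries.

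The other Fos relatives did not share the order of Fos. Fosb, which encodes a Fos-family subunit with a long-lived splice form, read 12.4 and 0.04 FPKM in the control libraries and 11.6 and 5.16 FPKM in the knockout libraries. Control 2 alone was near 0 and both knockouts lay within the range of the controls. Its log2 fold change of 1.24 (SE 1.93, 95% interval -3.49 to 5.96) did not pass the test (limma adjusted p = 0.761), and it was -0.61 without control 2 and -0.10 after quantile normalization. Fosl2, which encodes Fra-2, read 0 and 2.28 FPKM in the control libraries and 3.53 and 0.01 FPKM in the knockout libraries. Each group held 1 library at the floor, so no order by group was seen, and the limma adjusted p was 0.963.

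The 3 Jun genes, which encode the usual partners of Fos proteins, were all low beside Fos. Jun read 7.80 and 3.67 FPKM in the control libraries and 15.9 and 3.77 FPKM in the knockout libraries. Knockout 1 was the highest, while knockout 2 lay just above the lower control. Junb, whose protein can oppose Jun at some promoters, read 21.7 and 6.93 FPKM in the control libraries and 19.2 and 2.15 FPKM in the knockout libraries. Each group held a high and a low library. Jund, the Jun gene with the steadiest expression in most tissues, read 1.82 and 0.56 FPKM in the control libraries and 1.39 and 3.95 FPKM in the knockout libraries, again with overlap.

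Fold changes of the Jun genes were small beside their errors. They were 0.49 for Jun (95% interval -3.57 to 4.54), -0.75 for Junb (-5.00 to 3.50) and 0.71 for Jund (-3.16 to 4.59), with limma adjusted p of 0.913, 0.857 and 0.849. Each interval reaches more than 3 log2 units in both directions, so the data do not show that the Jun genes were alike in the groups. The sign of Jun was negative without knockout 1 (-0.43), that of Junb positive without knockout 2 (0.59), and all 3 stood lower in knockouts after quantile normalization (-1.36, -2.18 and -1.42). Jun, Junb, Jund and Ier2 have a single exon in every GENCODE M21 basic transcript, and the other 6 genes have 2 to 5. Exons of Jund overlap Gm11175 on the opposite strand. The SMART-seq type of protocol does not mark strand, so reads of these 2 genes cannot be told apart.

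**Figure D2:**
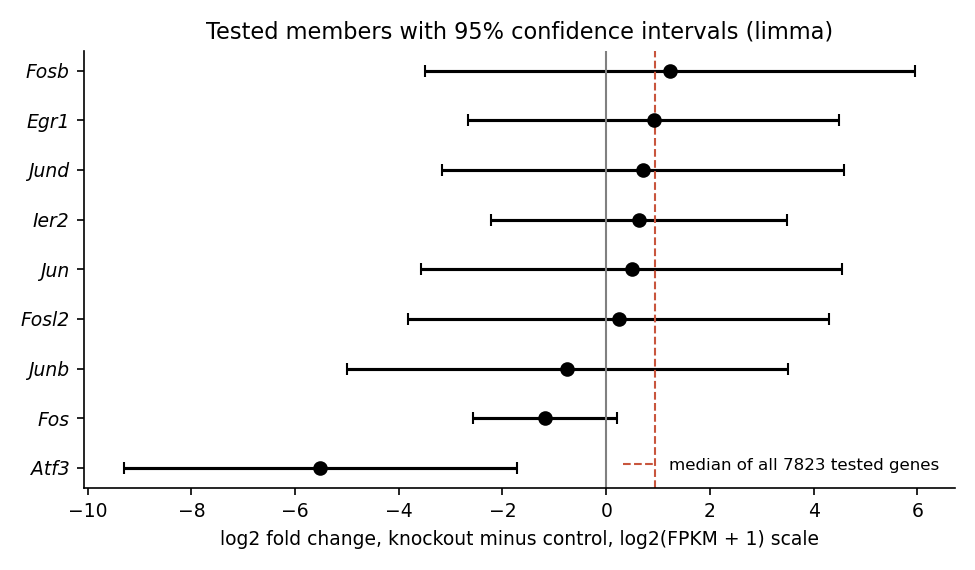
Log2 fold change, knockout minus control, of the 9 tested members (points) with 95% confidence intervals from limma (bars), beside 0 (grey line) and the median of all tested genes, 0.94 (dashed line). The interval of Atf3 is the only one that does not hold 0, and the point of Fosb is the only one to the right of the dashed line.

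Egr1 encodes a zinc finger factor of the immediate-early class that is not part of AP-1. It read 130 and 10.7 FPKM in the control libraries and 70.4 and 75.0 FPKM in the knockout libraries. The knockouts were close to each other and lay between the controls, which differed 12.1-fold. Group means were 70.2 ± 84.1 and 72.7 ± 3.25 FPKM (SD, n = 2 each), and the log2 fold change of 0.91 (SE 1.46) did not pass the test (limma adjusted p = 0.768). The sign rested on control 2: without it the log2 fold change was -0.83, and without control 1 it was 2.65.

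Ier2, an immediate-early gene whose product is a nuclear protein, read 28.5 and 34.5 FPKM in the control libraries and 65.0 and 37.6 FPKM in the knockout libraries. Both knockouts were above both controls, but knockout 2 exceeded the higher control by a factor of 1.09 only. The log2 fold change of 0.64 (SE 1.17, 95% interval -2.21 to 3.50) was below the median of all genes and did not pass the test (limma adjusted p = 0.802). By rank within a library Ier2 stood at 2353 and 2029 in the control libraries and at 1711 and 2399 in the knockout libraries, so that the groups overlapped. After median ratio scaling the fold change was -0.27. Maff, a small Maf protein without a transactivation domain, was listed at 0.04 and 0 FPKM in the controls and at 0 in both knockouts, and no fold change is given.

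Within the members, the spread between replicates was large. In 7 of the 9 tested members, all but Fos and Atf3, the larger of the 2 within-group ranges on the log2 scale exceeded the difference between group means. The median log2 fold change of the 9 was 0.49, against 0.94 for all tested genes, without matching for level. With no filter the order of these medians turned, at 0.36 for the 10 members and 0.01 for all genes. Of the 9, 8 had a fold change below the median of all genes, Fosb being the exception. The sign of the members' median turned with the processing, to -0.29 after median ratio scaling (0.28 for all genes) and -1.21 after quantile normalization (0.12 for all genes). It was -0.61 without control 2 and -0.09 without knockout 1, where that of all genes was 1.04 and 0.64. Atf3 and Fos stood lower in the knockouts under all 14 alternatives. Only the scalings could have turned these signs, since both knockouts already lay below both controls. Fos read -2.12 after median ratio scaling, -1.02 after rescaling to the same sum and -0.95 after quantile normalization. Atf3 read -5.95, -5.43 and -5.70 in the same order.

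**Figure D3:**
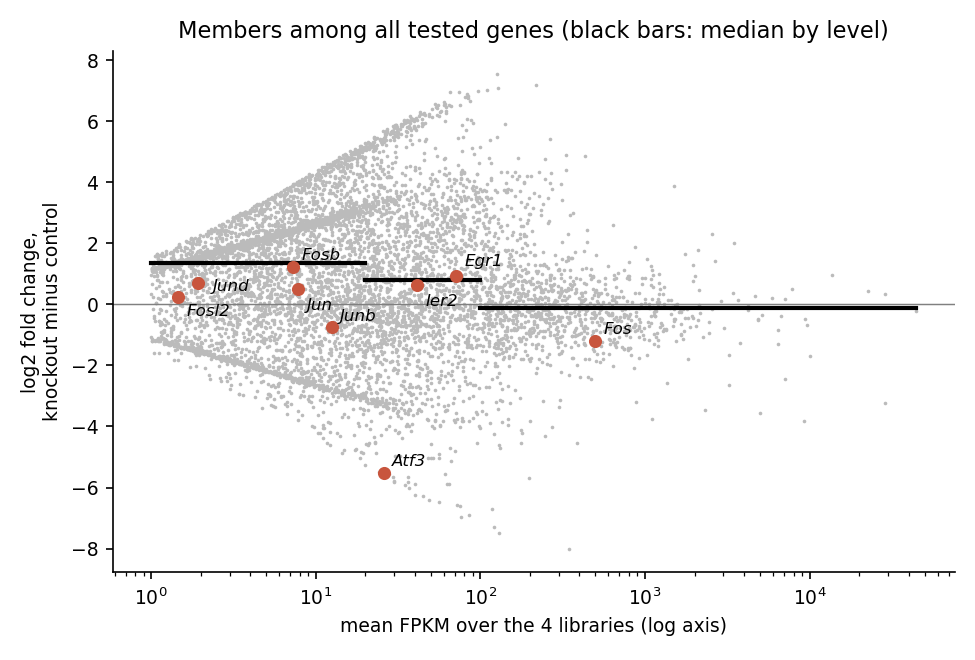
Log2 fold change, knockout minus control, against mean FPKM (log axis) for all 7823 tested genes (grey points) and the 9 tested members (coloured points), with the median fold change of genes at means from 1 to 20, from 20 to 100 and from 100 FPKM up (black bars: 1.35, 0.78 and -0.11). Atf3 lies at the lower edge of genes of its level, and Fos lies below the bar of its level.

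Of the other AP-1 family and leucine zipper partners, 23 of 27 were tested and 0 were called. Their median log2 fold change was 0.45. Both knockouts lay above the controls in 5 genes and below them in 3, beside 27.8% and 11.4% of all tested genes. Among the most abundant were Maf, a macrophage identity factor, Nfe2l2, which drives the antioxidant response, and Batf3, a partner of Jun proteins. Maf read 34.1 and 86.8 FPKM in the control libraries and 34.3 and 31.1 FPKM in the knockout libraries, with overlap. Nfe2l2 read 27.9 and 90.3 FPKM against 80.5 and 59.8 FPKM, and both knockouts lay between the controls. Batf3 was steady, at 42.8 and 49.1 FPKM against 36.9 and 34.2 FPKM, with both knockouts just below the controls.

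The 3 partners below both controls were Batf3, Atf4 and Crem, of which the last 2 were named after their values were seen. Atf4, the central factor of the integrated stress response, read 48.4 and 24.0 FPKM in the control libraries and 0.39 and 5.02 FPKM in the knockout libraries. Crem, a cyclic AMP responsive factor, read 13.3 and 8.35 FPKM against 0 and 0.34 FPKM. Both had lower values in both knockouts, as Atf3 had, and neither was called. Bach1, Cebpb, Cebpd, Atf6 and Atf7 were the 5 partners above both controls, also named after their values were seen. Genes above both controls were also the more frequent among all tested genes. Bach1 read 6.11 and 7.62 FPKM in the control libraries and 14.8 and 15.8 FPKM in the knockout libraries. Cebpd read 1.88 and 1.00 FPKM against 9.11 and 10.4 FPKM.

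Of 33 other immediate-early genes, 23 were tested and 0 were called. Both knockouts lay below the controls in 5 of them and above in 2, beside 11.4% and 27.8% of all tested genes, without matching for level. The median log2 fold change was -0.41, against 0.94 for all tested genes. These medians are not matched for level: that of all genes was 0.78 from 20 to 100 FPKM and -0.11 from 100 FPKM up. Btg1, an antiproliferative gene, read 197 and 359 FPKM in the control libraries and 75.9 and 78.2 FPKM in the knockout libraries, with no overlap. Rgs1, a regulator of G protein signalling that is also induced during microglia isolation, read 590 and 209 FPKM in the controls, while knockout 1 had 405 FPKM and knockout 2 had 1.93. Its relative Rgs2 read 150 and 280 FPKM against 178 and 21.2 FPKM, so for both genes knockout 2 was the low library.

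Nfkbia, which encodes the NF-kB inhibitor IkB-alpha, read 80.1 and 131 FPKM in the control libraries and 153 and 155 FPKM in the knockout libraries, above both controls. Immediate-early genes listed at under 1 FPKM in all 4 libraries numbered 8 and included Nr4a2, Nr4a3 and Arc, named after their values were seen.

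Of the MAP kinase cascade and its SRF factors, 17 of 33 were tested and 0 were called, with a median of 0.59. Both knockouts lay above the controls in 2 genes and below in 0, beside 27.8% and 11.4% of all tested genes. In 8 of the 17 a single library held over 90% of the FPKM. Mapk14, which encodes p38 alpha, read 20.4 and 0.13 FPKM in the control libraries and 113 and 0.20 FPKM in the knockout libraries. Mapk9, which encodes JNK2, read 64.2 FPKM in control 1 and 0.04 to 0.13 FPKM in the others. Map3k1, a kinase that acts on the JNK branch, read 82.3 and 312 FPKM in the control libraries and 98.9 and 55.2 FPKM in the knockout libraries, and the groups overlapped. Map3k8, which activates the ERK branch, read 9.13 and 28.4 FPKM against 47.7 and 1.99 FPKM.

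Of MAP kinase phosphatases and feedback genes, 13 of 19 were tested and 0 were called, with a median of 0.13. Both knockouts lay above the controls in 3 genes and below in 1, beside 27.8% and 11.4% of all tested genes. Dusp1, the immediate-early phosphatase of p38 and JNK, read 542 and 169 FPKM in the control libraries and 1278 and 404 FPKM in the knockout libraries. Dusp1 was thus at a level like that of Fos and had its highest value in knockout 1, whereas Fos was lower there than in both controls. Dusp6, the phosphatase of ERK, read 72.3 and 115 FPKM against 97.2 and 79.0 FPKM, between the controls. Ppm1b, a phosphatase that acts on TAK1, read 17.8 and 0.12 FPKM against 58.6 and 31.5 FPKM, and Dusp22 read 97.0 and 0.21 FPKM against 0.43 and 55.8 FPKM.

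Heat shock genes, which also answer to handling of cells, went both ways. Of 18 genes, 14 were tested and 0 were called, with a median of 0.54. Both knockouts lay above the controls in 3 and below in 2, beside 27.8% and 11.4% of all tested genes. Hsp90aa1 read 427 and 241 FPKM in the control libraries and 501 and 539 FPKM in the knockout libraries. Hspe1, a mitochondrial chaperonin, read 543 and 558 FPKM against 258 and 344 FPKM, and Hspa8 read 436 and 619 FPKM against 714 and 599 FPKM. Hspa5, a chaperone of the endoplasmic reticulum, read 192 and 36.3 FPKM against 205 and 184 FPKM. The stress-induced Hspa1a, named after its values were seen, read 24.6 FPKM in control 1 and 1.50 to 2.52 FPKM in the other 3 libraries.

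**Figure D4:**
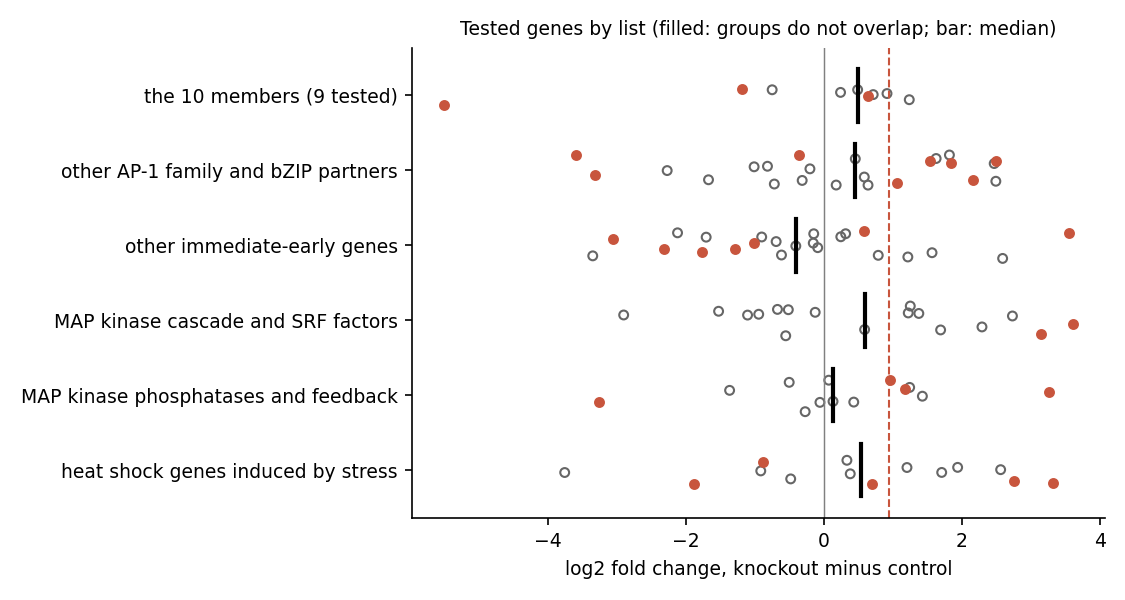
Log2 fold change, knockout minus control, of the tested genes of the 10 members and of 5 related lists (1 point per gene, filled where the 2 groups do not overlap), with list medians (black bars) and the median of all tested genes (dashed line, 0.94). Other immediate-early genes have the lowest median, -0.41, and every list has genes on both sides of 0.

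Sums of markers of several other cell types differed between the groups, though most tested monocyte and perivascular macrophage markers overlapped. In 3 of 8 tested monocyte and 4 of 8 tested perivascular markers, 1 library held over 90% of the FPKM. In bulk libraries fewer cells of a type cannot be told apart from less RNA per cell. Of 12 monocyte markers 10 were in the table and 8 were tested. Their summed FPKM was 881 and 1656 in the control libraries and 195 and 248 in the knockout libraries. Ms4a4c alone read 417 and 1211 FPKM in the controls against 138 and 120 FPKM in the knockouts. Ccr2 read 316 and 151 FPKM against 1.81 and 0.59 FPKM. These 2 genes lay below both controls and 0 lay above (11.4% and 27.8% of all tested genes). The other 6 tested markers overlapped. Plac8 read 173 FPKM in control 2 and at most 0.39 FPKM elsewhere, and F13a1 119 FPKM in knockout 2 and at most 0.18 FPKM elsewhere. Perivascular macrophage markers (9 of 10 in the table) summed to 2358 and 1752 FPKM against 190 and 715 FPKM, with Cd163 at 0 to 0.02 FPKM. This gap was that of Ms4a7 (1614 and 1547 FPKM against 189 and 155 FPKM) and Clec12a (144 and 199 FPKM against 0.36 and 0.48 FPKM). The other 7 summed to 600.1 and 6.79 FPKM against 0.72 and 559 FPKM, with overlap, and Lyve1 and Cbr2 were at 61.8 and 96.7 FPKM in knockout 2 and at most 0.15 FPKM elsewhere. The monocyte sum was lower in both knockouts, as Fos and Atf3 were, and the part of either list in those values was not tested.

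Rod markers (17 of 17 in the table) summed to 3017 and 4103 FPKM in the controls and 7318 and 11970 FPKM in the knockouts. Microglia markers (19 of 19) summed to 17752 and 18343 FPKM against 43065 and 28105 FPKM, and bipolar cell markers (10 of 10) to 4.41 and 180 FPKM against 912 and 833 FPKM. Endothelial and pericyte markers (9 of 12) summed to 0.23 and 2.43 FPKM against 172 and 37.7 FPKM, with Cspg4 at 0 in all libraries. The knockout sums were carried by the 3 tested genes. In the knockouts Vtn read 96.1 and 29.3 FPKM, Rgs5 60.2 and 0.10 FPKM and Flt1 15.9 and 8.05 FPKM. Another 5 of the 9, Pecam1, Cdh5, Kdr, Tek and Cspg4, were under 1 FPKM in all 4 libraries. Müller glia and astrocyte markers (12 of 12) summed to 5256 and 5459 FPKM against 10238 and 2347 FPKM, with Gfap at 0 to 0.02 FPKM. Apoe, which macrophages also express, made up 70.2% to 93.3% of that sum. The other 11 summed to 352 and 491 FPKM against 1047 and 700.2 FPKM, higher in both knockouts. Glul alone read 84.6 and 318 FPKM against 774 and 599 FPKM. It was the only tested marker of this list above both controls, while 2, Vim and Crym, lay below both and 7 overlapped. Neutrophil markers (3 of 10) summed to at most 32.9 FPKM in any library, with Lcn2 at 0 in all of them. Sums of rod, bipolar, microglia, and endothelial and pericyte markers were also higher in both knockouts, and their part in the values of the members was not tested.

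**Figure D5:**
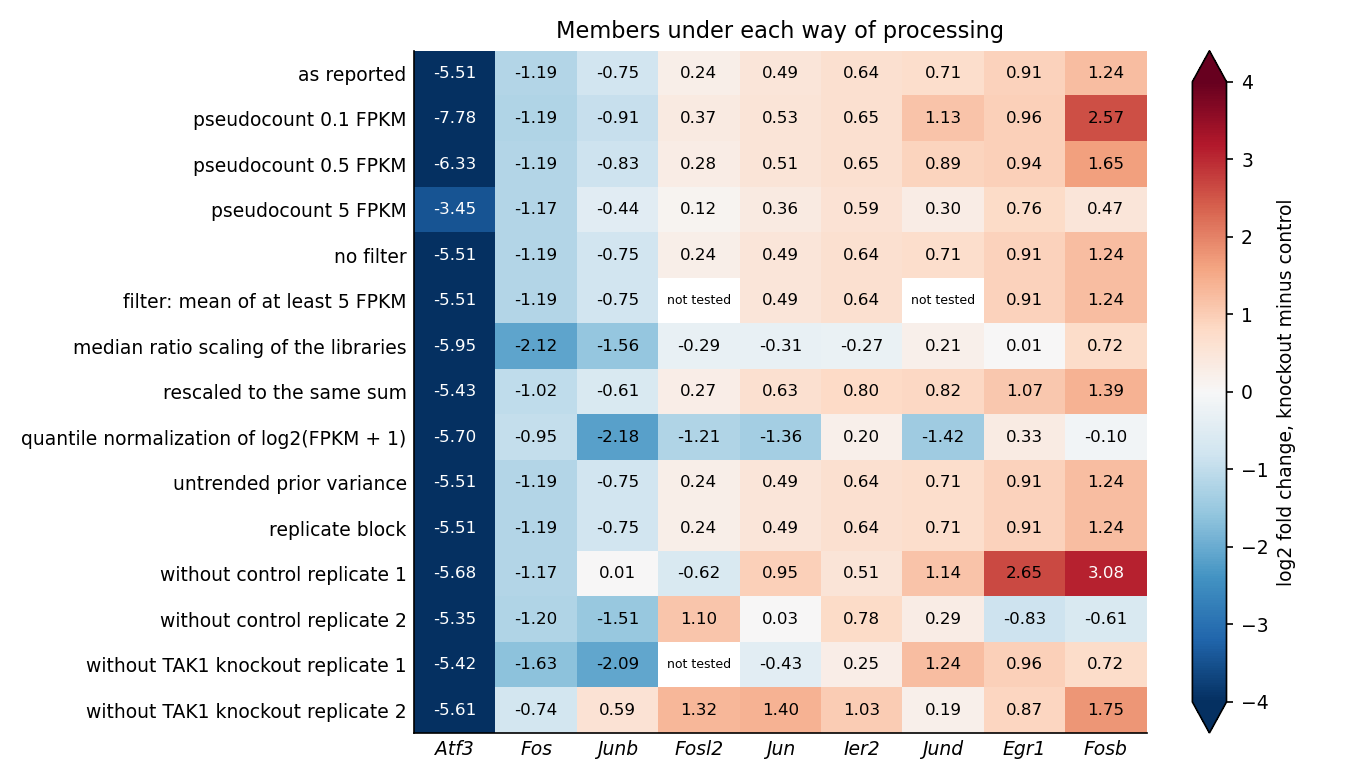
Log2 fold change, knockout minus control, of each tested member (columns) as reported and under the 14 alternatives (rows), coloured from blue (lower in knockouts) to red (higher), with each value printed. Atf3 and Fos are below 0 in every row, while Fosb, Fosl2, Jun, Junb, Jund, Egr1 and Ier2 change sign in at least 1 row. For Atf3 and Fos, whose knockouts lie below both controls, only the rows with another scaling could have differed in sign.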

How the data were processed

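RNA of 200 sorted cells per library was amplified as full-length cDNA by a SMART-Seq type of protocol, per the labels' protocols. The authors deposited 1 FPKM value per gene and library, rounded to 2 decimals, and the submitters' processing notes name the build mm10. Which aligner, quantifier and annotation were used is not given in the sources. Between 0.1 and 1 FPKM, only 6.8% to 10.6% of the ratios between a pair of libraries lay within 3% of the most common ratio, so whole reads were not recovered and depth is unknown. Of 15586 identifiers, 15470 were in the RefSeq GRCm38.p6 table, with all 10 members among them. Positions and exons came from GENCODE M21 on GRCm38, which is the build mm10.

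Log2(FPKM + 1) of genes whose mean reached 1 FPKM was tested in R 4.3.3 with limma 3.58.1, with a prior variance that follows the mean, 3.99 prior degrees of freedom beside 2 residual ones, and a threshold of 0.05 after Benjamini-Hochberg adjustment. The code was tested on simulated data. All members were named, with the 4 most abundant genes of each related list, except that an item the rule names is not reported here. From each marker list, sums and selected genes are given. Of these genes, F13a1, Cd163, Lyve1, Cbr2, Pecam1, Cdh5, Kdr, Tek, Cspg4, Gfap, Vim, Crym and Lcn2 were chosen after their values were seen. The members and lists were chosen with earlier results of these data known. Alternatives were other pseudocounts, filters, scalings and variance settings, a replicate block, and each library left out. Figures were drawn with matplotlib 3.10.9.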

Additional observations from a re-analysis of the deposited data

How the results depend on the processing

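With 2 libraries in each group and unknown depth, values near 0 could not be told from failed detection. None of the 14 alternatives called a member at an adjusted p under 0.05. Genes called in the whole table numbered 0 as reported, 5 after quantile normalization and 0 to 1311 when a library was left out (701 without knockout 1, 1311 without knockout 2). In those fits the lone library is assumed to vary like the other group. The replicate number pairs nothing by the labels, and same-numbered libraries deviated together with r = 0.02 over 7823 genes. With the replicate block, which leaves 1 residual degree of freedom, 35 genes were called and the fold changes of the members were unchanged.

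The members' median log2 fold change was -1.21 after quantile normalization and -0.61 to 0.87 when a library was left out. Members without overlap numbered 5 of 9 after quantile normalization, all of them lower (38.2% of all genes, either direction), and 5 to 7 of 8 or 9 when a library was left out, where a lone library is easier to separate (64.5% to 69.8% of all genes). The log2 difference of the summed FPKM was -0.92 as reported, -1.86 after median ratio scaling and -1.31 to -0.53 when a library was left out. Sign changes were seen in 7 members. After median ratio scaling Fosl2 read -0.29, Jun -0.31 and Ier2 -0.27. After quantile normalization Fosb read -0.10, Fosl2 -1.21, Jun -1.36 and Jund -1.42. When a library was left out, Fosb ranged from -0.61 (without control 2) to 3.08, Fosl2 from -0.62 (without control 1) to 1.32, Jun from -0.43 (without knockout 1) to 1.40, Junb from -2.09 to 0.59 (without knockout 2) and Egr1 from -0.83 (without control 2) to 2.65. Junb was also above 0 without control 1 (0.01), and Fosl2 was not tested without knockout 1. The cause was not tested.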
